A study of Mus musculus with 24 samples.

Results

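Chemokines are small secreted proteins that draw leukocytes along a gradient, and the genes described here are the chemokine ligands and receptors of the mouse digit tip. Members were chosen by a rule on gene names, with earlier results of these data known. The rule took every gene named Ccl, Cxcl, Ccr, Cxcr or Ackr with a number, together with Cx3cl1, Cx3cr1, Xcl1 and Xcr1. The deposited table held 26 of them among 15055 genes, and they comprise 13 ligands, 9 signalling receptors and 4 atypical receptors. Of 62 protein-coding RefSeq genes with such names, the other 36, Xcl1 and Xcr1 among them, are not analysed here. The lowest maximum of any gene in the table was 20, so the 26 are the members that passed a filter on low values, not the whole family.

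The study asked how bone and fibrous tissue form in the digit tip of adult C57BL/6 mice, an inbred laboratory strain, aged 10 to 12 weeks. Hind limb digits were cut at a distal level, after which the tip is known to regrow, or at a proximal level, after which it is known not to. RNA was sequenced after distal amputation and after proximal amputation at 12, 14 and 21 days, with 4 libraries in each of the 6 groups. No uncut digit is analysed here. All groups share the strain, the age range and the tissue, a mixture of bone, cartilage, marrow, dermis and epidermis. Whether each library is a different animal is not stated in the labels, and the p-values here describe variation among libraries, some of which may be technical.

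Most chemokines fall into CC and CXC families by the spacing of their first cysteines. They signal through G protein-coupled receptors on leukocytes, whereas atypical receptors bind chemokines without G protein signalling and take them up or carry them across cells. CXC ligands that act on Cxcr2 are known for drawing neutrophils into wounds, Ccl2 for drawing monocytes through Ccr2, and Cxcl12 for holding haematopoietic cells in the marrow through Cxcr4.

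Values are whole numbers that the authors had already normalised, so sequencing depth is unknown, and a value has meaning relative to the same gene in other libraries. Differences were fitted as log2(value + 1) with limma over all 24 libraries and 15055 genes. A gene was called when its Benjamini-Hochberg adjusted p over all genes was under 0.05, and errors of log2 differences are standard errors (SE). Markers of the labelled tissues were present in every library: 8 of 8 listed epidermal genes, 6 of 6 osteoblast genes, 4 of 5 cartilage genes and 5 of 6 erythroid genes were in the table, none at 0 in any library. Proximal 12 day replicate 1 stood apart from its group on the second principal component, at -24.96 against -43.9 to -46.9 for the others. Distal 14 day replicate 1 stood apart in the leukocyte genes, with a summed macrophage marker value of 6381 against 3614 to 4814 in the other distal 14 day libraries.

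Cxcl14 was by far the most abundant member. Per kilobase of the deposited gene length, its value averaged 3177 over all 24 libraries. Ackr3 averaged 190.1 per kilobase, Cxcl12 140.2, Ccl6 119.8, Cx3cl1 117.5 and Ccl9 104.3, and each of the remaining 20 members lay below these. The order differed by group: in distal 12 day libraries Ccl9 was second, at 217.2 per kilobase, and Ccr1, at 138.5, and Cxcl5, at 127.9, lay above Cx3cl1 and Ccl6. Among the least abundant per kilobase was Ccl28, at 4.52. Orders between genes are a rough guide, since they depend on the length used. Undivided, Cxcl12 (8176 bases) averaged 1146 and Ackr3 (3348 bases) 636.6. Variation between groups followed another order: the highest group mean was 68.1 times the lowest for Cxcl5, 11.1 times for Ccr1 and 7.77 times for Cxcl1, but 1.19 times for Ackr3.

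**Figure D1:**
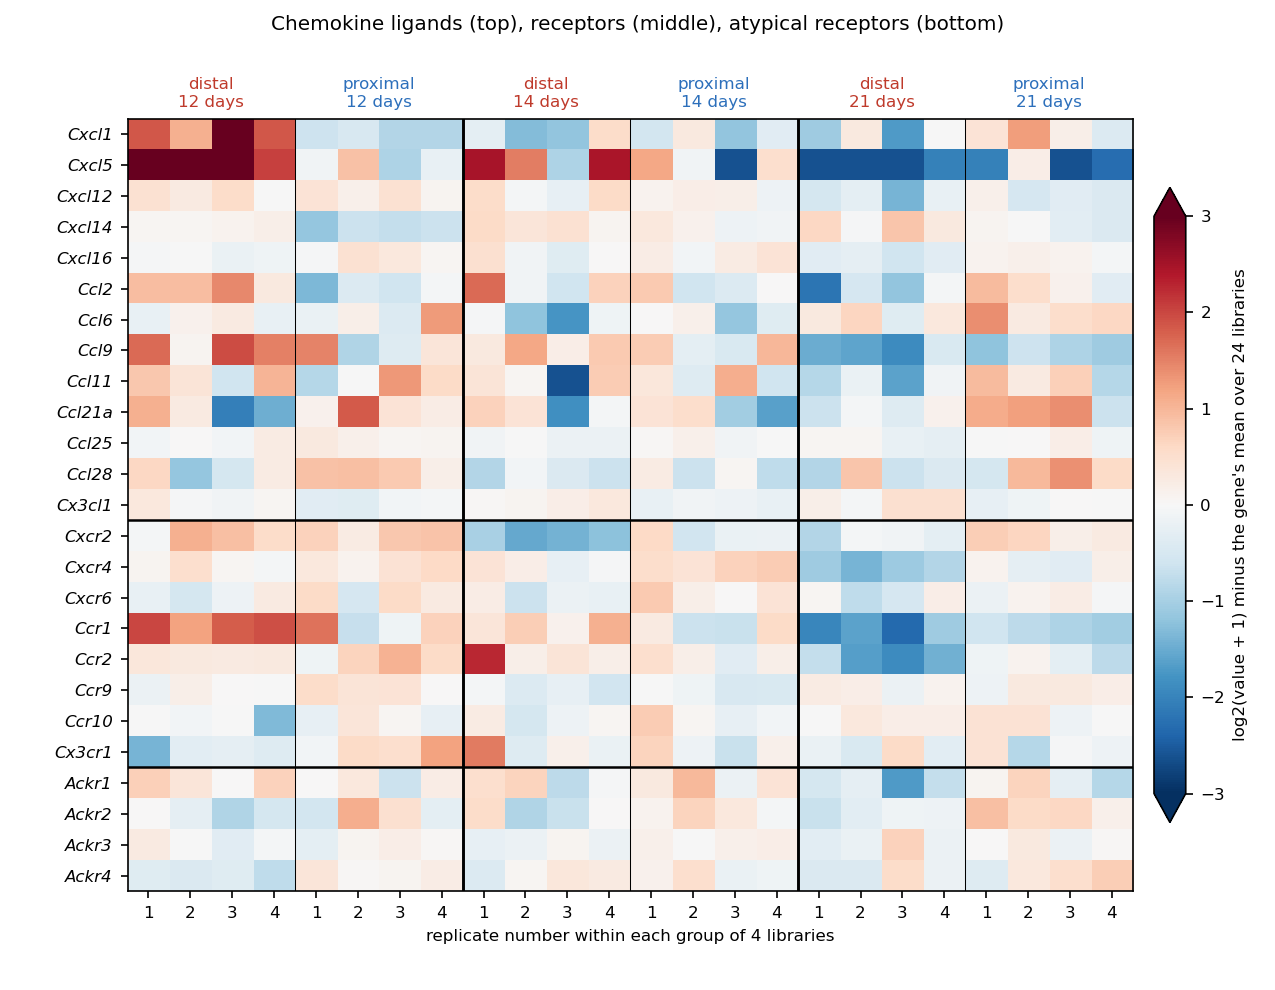
Each cell is the log2(value + 1) of a member in 1 library minus that gene's mean over 24 libraries, for 25 of the 26 members, clipped at 3 in either direction; genes run down the page, and replicate numbers of each group run along the horizontal axis. Cxcl1, Cxcl5, Ccl9 and Ccr1 are high in the distal 12 day libraries, with Ccl9 nearer its mean in replicate 2, and Cxcl5, Ccr1, Ccr2 and Cxcr4 are low in the distal 21 day libraries.

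At 12 days, 7 of the 26 members differed between levels. Cxcl1, Cxcl5, Cxcl14, Ccl2 and Ccr1 were higher after distal amputation, and Ackr4 and Cx3cr1 were lower. Over all genes 20.3% were called at this time, 9.25% as higher and 11% as lower, and 6 members had no overlap between the levels, against 23% of all genes. With values scaled by median-ratio factors the members split into 5 higher and 1 lower, and all called genes into 1605 higher and 1446 lower, or 845 and 1697 with table totals. At 14 days only Cxcr2 was called, as lower after distal amputation, where 5.39% of all genes were called, 3.06% as higher and 2.32% as lower. Its levels and those of Cx3cl1 did not overlap at 14 days, as for 11.3% of all genes. At 21 days 6 members were called against 17.6% of all genes: Cxcl14 and Cx3cl1 were higher (8.22% of all genes), and Cxcr4, Cxcr2, Ccr2 and Cxcl16 were lower (9.43%). At 21 days 5 members did not overlap between levels, against 18.8% of all genes. With table totals, which moved the median of all genes by -0.14 on the log2 scale, none was higher and 7 were lower at 21 days. Without 1 library the 12 day count fell to 4 (distal replicate 1 or 3, or proximal replicate 2) or 3 (proximal replicate 3). The 21 day count fell to 3 without distal replicate 1 and to 2 without distal replicate 3 or proximal replicate 2. The median member differed by -0.08 at 12 days, -0.08 at 14 days and -0.59 at 21 days on the log2 scale, where the median of all genes was -0.03, 0.00 and -0.05. At 21 days the fitted difference was below 0 in 22 of the 26 members, or 84.6%, against 58.7% of all genes. Fewer cells of a type and less RNA per cell cannot be told apart in whole tissue RNA, here and below.

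**Figure D2:**
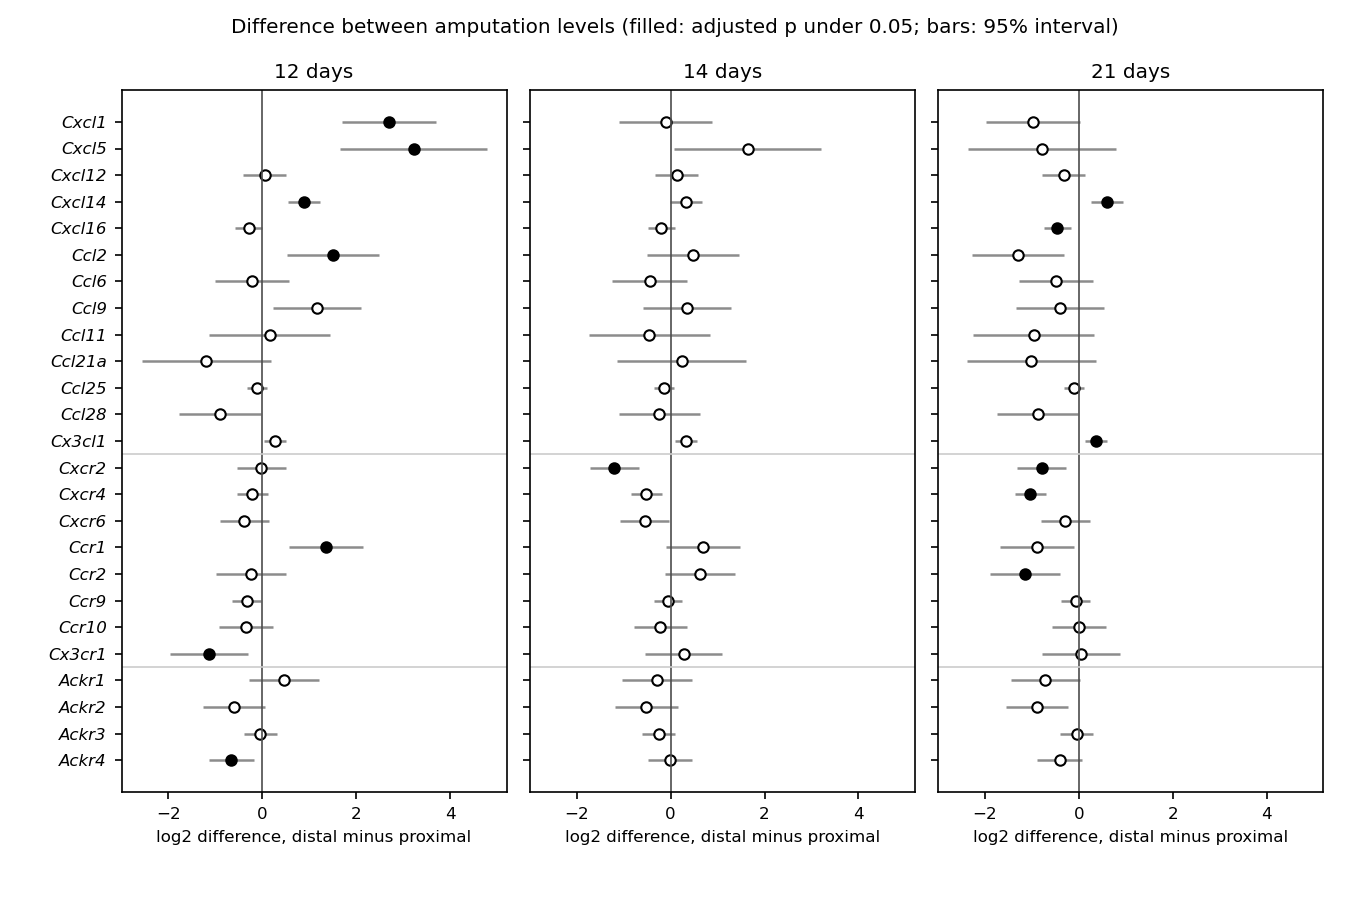
The log2 difference in value, distal minus proximal, for 25 of the 26 members at 12, 14 and 21 days, with bars for the 95% interval and filled points for an adjusted p under 0.05; lines separate ligands, receptors and atypical receptors. Of the 7 filled points at 12 days 5 lie to the right of 0, and of the 6 at 21 days 4 lie to the left.

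The promoters of 4 members illustrate the sequences in front of these genes: Cxcl1 and Ccl9, which fell between 12 and 21 days in distal tissue, Cxcl14, the most abundant, and Cxcr4, low at 21 days. Each line gives the 250 bases before the start of transcription, 5′ to 3′ on the gene's strand, from RefSeq on GRCm38.p6. Capitals mark matches to an NF-kB type motif, GGG then any 3 bases then TTCC (on the other strand GGAA, any 3 bases, CCC), and to a TATA box, TATAAA or TTTATA on the other strand. Where matches overlap, they share a run of capitals.
Cxcl1: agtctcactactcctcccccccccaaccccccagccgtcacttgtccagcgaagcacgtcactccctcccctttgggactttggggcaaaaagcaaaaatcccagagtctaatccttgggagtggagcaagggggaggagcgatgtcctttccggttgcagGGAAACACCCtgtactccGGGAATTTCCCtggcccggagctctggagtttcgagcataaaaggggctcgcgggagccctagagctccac
Ccl9: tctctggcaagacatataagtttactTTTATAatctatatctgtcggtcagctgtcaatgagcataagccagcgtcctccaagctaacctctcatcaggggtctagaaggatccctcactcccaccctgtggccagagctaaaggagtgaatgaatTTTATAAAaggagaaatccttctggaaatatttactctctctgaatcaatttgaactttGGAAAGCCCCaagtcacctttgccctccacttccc
Cxcl14: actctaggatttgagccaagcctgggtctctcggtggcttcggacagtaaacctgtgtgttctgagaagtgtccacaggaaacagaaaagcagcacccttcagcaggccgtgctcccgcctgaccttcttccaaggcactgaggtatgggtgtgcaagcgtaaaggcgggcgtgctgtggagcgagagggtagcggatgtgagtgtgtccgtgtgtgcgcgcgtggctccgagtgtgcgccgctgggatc
Cxcr4: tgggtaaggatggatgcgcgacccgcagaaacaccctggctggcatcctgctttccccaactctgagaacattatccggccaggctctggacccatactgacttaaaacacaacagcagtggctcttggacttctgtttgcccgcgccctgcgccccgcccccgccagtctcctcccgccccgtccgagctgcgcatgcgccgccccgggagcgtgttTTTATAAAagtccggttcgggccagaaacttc
The windows are chr5:90890995-90891244 on the plus strand for Cxcl1, chr11:83578637-83578886 on the minus strand for Ccl9, chr13:56296552-56296801 on the minus strand for Cxcl14 and chr1:128592300-128592549 on the minus strand for Cxcr4. In Cxcl1 a match to the NF-kB type motif begins 71 bases before the start, and matches on the other strand begin 89 and 70 bases before it. Ccl9 holds 1 such match, beginning 35 bases before the start. Among 21 promoter windows found for 20 members, only 2 (9.52%), those of Cxcl1 and Ccl9, held the NF-kB type motif, compared with 1527 of 32851 promoters (4.65%). Ccr1, Ccr2, Cxcr2 and Cxcl12 also fell between 12 and 21 days in distal tissue, and their windows held neither motif. Cxcl5 and Ccl2 fell as well, but no window was found for them, so they were not searched. Cxcl16, Ccl11 and Ccr10 also lacked a window. The TATA box letters were in 6 member windows (28.6%), those of Ackr3, Ackr4, Ccl25, Ccl9, Cx3cl1 and Cxcr4, compared with 4063 of all promoters (12.4%). A match is a description of the letters and not evidence that a factor binds, and the Cxcl14 window holds neither motif.

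Cxcl1 and Cxcl5, which draw neutrophils by way of Cxcr2, showed the largest differences between levels of any member. At 12 days Cxcl1 (chr5:90891241-90893115, GRCm38, plus strand) stood at 105, 60, 257 and 106 in distal replicates 1 to 4 and at 18, 20, 15 and 15 in proximal replicates 1 to 4. All 4 distal libraries were above all 4 proximal ones, and distal replicate 3 was the highest. The difference was 6.47-fold (log2 2.69 ± 0.48 SE, adjusted p = 0.00041). Cxcl5 (chr5:90759360-90761624, plus strand) stood at 255, 209, 388 and 101 after distal amputation and at 22, 44, 12 and 20 after proximal amputation. Again the levels did not overlap, and the difference was 9.32-fold (log2 3.22 ± 0.76, adjusted p = 0.0045).

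At 14 days neither ligand differed between levels by the test. Cxcl1 stood at 23, 11, 12 and 42 in distal libraries and at 19, 35, 12 and 22 in proximal libraries, a log2 difference of -0.10 with a 95% interval of -1.10 to 0.89. Cxcl5 stood at 135, 70, 12 and 132 in distal libraries and 54, 22, 3 and 34 in proximal libraries. These overlapped, and the log2 difference of 1.64 ± 0.76 was not called (adjusted p = 0.217). At 21 days Cxcl1 was 13, 35, 8 and 28 after distal amputation and 38, 69, 32 and 21 after proximal amputation, and Cxcl5 was 3, 3, 3 and 5 against 5, 27, 3 and 4. Neither was called at that time, with adjusted p of 0.166 for Cxcl1 and 0.509 for Cxcl5. Values this low make the fold change of Cxcl5 depend on the pseudocount.

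The change of both ligands between 12 and 21 days differed between the levels. For Cxcl1 the distal change minus the proximal change was -3.67 ± 0.68 on the log2 scale (adjusted p = 0.000929), and for Cxcl5 it was -4.00 ± 1.07 (adjusted p = 0.0139). Both calls, and those at 12 days, held when any of the libraries concerned was left out. Within the distal groups Cxcl1 averaged 132 ± 86.1 (SD, n = 4) at 12 days, 22.0 ± 14.4 at 14 days and 21.0 ± 12.6 at 21 days, and Cxcl5 averaged 238 ± 119, 87.2 ± 58.4 and 3.50 ± 1.00. Within the proximal groups Cxcl1 averaged 17.0 ± 2.45, 22.0 ± 9.63 and 40.0 ± 20.6, and Cxcl5 24.5 ± 13.7, 28.2 ± 21.4 and 9.75 ± 11.5. No day comparison called either ligand within the proximal groups.

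Their receptor followed another course. Cxcr2 (chr1:74153989-74161246, plus strand), the neutrophil receptor for both ligands, stood at 58, 127, 113 and 89 in distal 12 day libraries and at 97, 71, 106 and 109 in proximal 12 day libraries. The levels were mixed at that time, with a log2 difference of -0.03 and a 95% interval of -0.55 to 0.50. At 14 days Cxcr2 was 30, 20, 22 and 25 after distal amputation and 91, 40, 52 and 53 after proximal amputation. Every distal library lay below every proximal one, and the value was 2.3-fold lower (log2 -1.20 ± 0.25, adjusted p = 0.011). At 21 days it was 32, 58, 56 and 49 against 101, 94, 68 and 73, again with no overlap (log2 -0.79 ± 0.25, adjusted p = 0.035). The 21 day call ended without distal replicate 1 or 4 or proximal replicate 1 or 2, when the log2 difference lay between -0.80 and -0.60. Of the Cxcr2 sequence, 6.68% of 50-base windows also occur in other genes.

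Genes of neutrophils and of the inflammatory response also varied between groups. The neutrophil marker sums did not follow Cxcl1, Cxcl5 or Cxcr2 in every library. Of 11 listed neutrophil markers 4 were in the table, S100a8, S100a9, Csf3r and Lcn2, and none was at 0 in any library. Their summed value ranged over 1231 to 2840 in distal and 139 to 412 in proximal libraries at 12 days, over 197 to 14015 and 457 to 1576 at 14 days, and over 103 to 356 and 270 to 6107 at 21 days. S100a8 and S100a9 made up most of the highest sums, and Csf3r did not follow them. Distal 14 day replicate 2 held S100a8 at 4546 and S100a9 at 9378, with Csf3r at 34 and Lcn2 at 57. That library had the highest sum, with Cxcl1 at 11 and Cxcr2 at 20. Proximal 21 day replicates 2 and 3 held S100a9 at 3080 and 3103, with Csf3r at 34 and 5 and Lcn2 at 142 and 86. In distal 12 day libraries Csf3r was 84, 114, 170 and 103. At 12 days Csf3r, the G-CSF receptor, was higher after distal amputation (log2 3.07 ± 0.64, adjusted p = 0.00184), and the other 3 were not called. With limma all 4 had an unadjusted p under 0.05 at 12 days, 0 at 14 days and 3 at 21 days. At 21 days Lcn2, an iron-trapping protein of neutrophils and epithelia, was lower (log2 -2.80 ± 0.55, adjusted p = 0.00168). All 4 markers were called with a more negative change between 12 and 21 days after distal amputation, against 7.42% of all genes. Il1b, an inducer of Cxcl1, stood at 212, 532, 468 and 293 in distal and at 13, 13, 9 and 6 in proximal 12 day libraries (log2 5.03 ± 0.59, adjusted p = 4.08e-06). The part of these cells and of Il1b in the Cxcl1 and Cxcl5 differences was not tested.

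**Figure D3:**
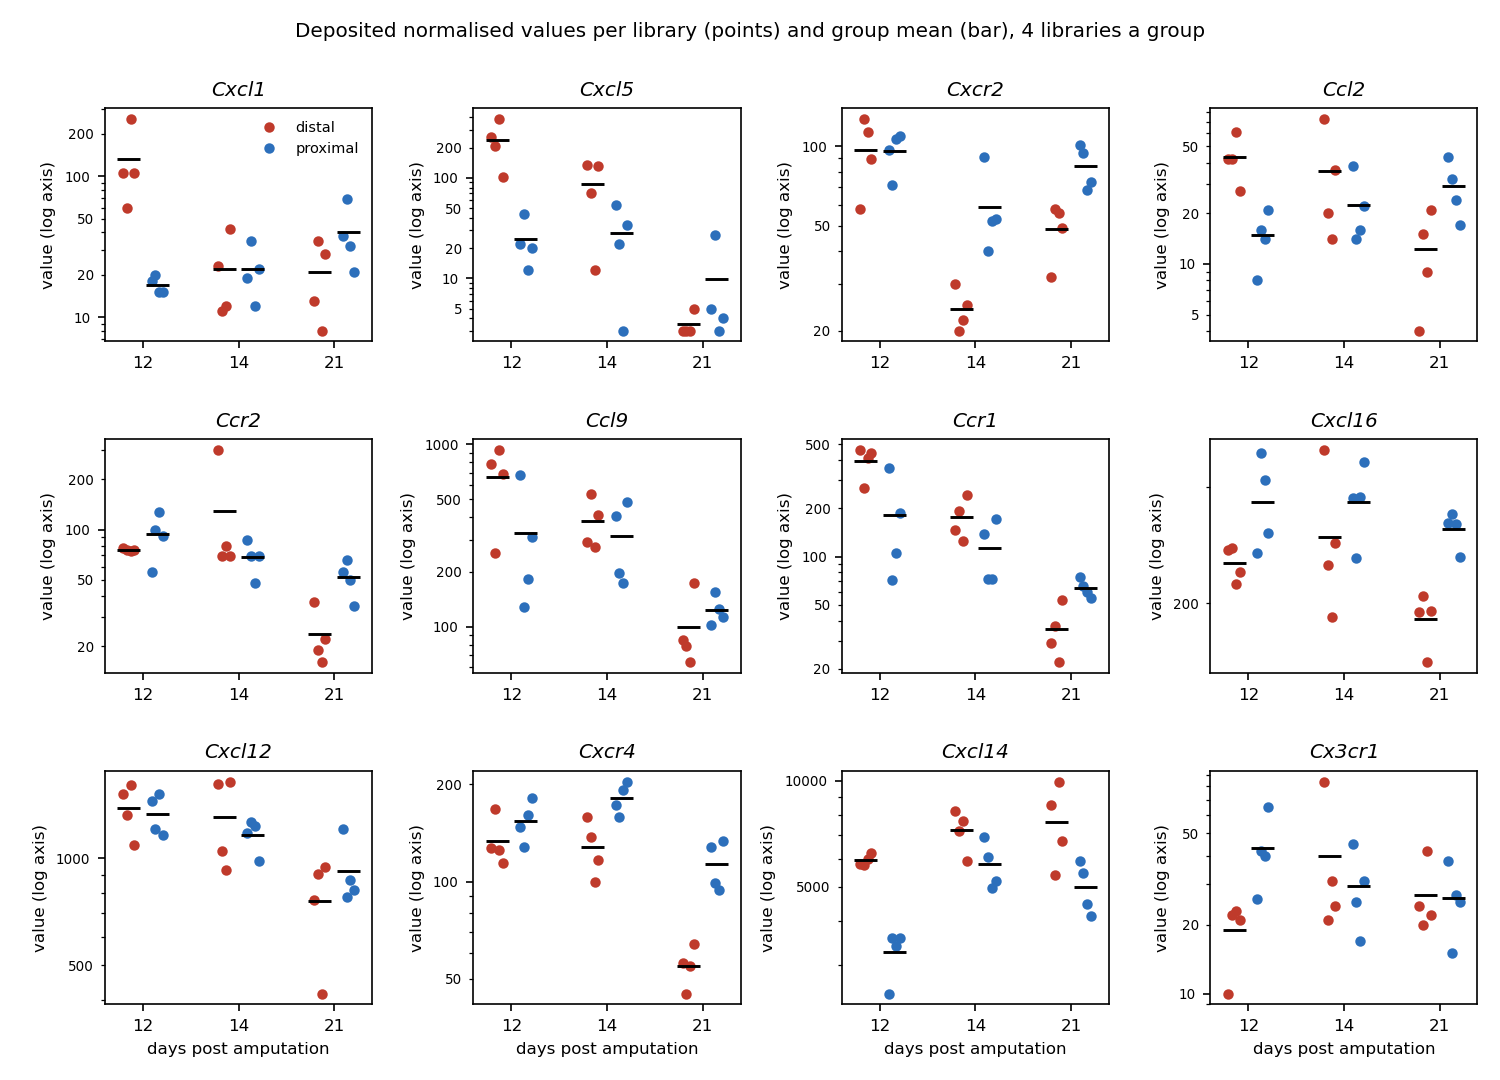
Deposited normalised values (log axis) of 12 members by days post amputation, with 1 point per library, red for distal and blue for proximal, and a bar at the mean of each group of 4. Distal Cxcl1 lies at 60 to 257 at 12 days, above proximal Cxcl1 at 15 to 20, and distal Cxcr4 lies at 45 to 64 at 21 days, below proximal Cxcr4 at 94 to 134.

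Ccl2, the monocyte attractant, was higher after distal amputation at 12 days. It stood at 42, 42, 61 and 27 in distal libraries and at 8, 16, 14 and 21 in proximal libraries, with no overlap. The difference was 2.82-fold (log2 1.5 ± 0.47, adjusted p = 0.0274). The call ended without distal replicate 1, 2 or 3 or proximal replicate 1 or 3, when the log2 difference lay between 1.25 and 1.5. At 14 days Ccl2 was 73, 20, 14 and 36 in distal against 38, 14, 16 and 22 in proximal libraries (adjusted p = 0.611). At 21 days it was 4, 15, 9 and 21 against 43, 32, 24 and 17. The 21 day log2 difference of -1.30 ± 0.47 was not called (adjusted p = 0.0588), but the distal change between 12 and 21 days was more negative than the proximal one, by -2.80 ± 0.67 (adjusted p = 0.00646).

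Ccr2 (chr9:124101950-124113557, plus strand), the monocyte receptor for Ccl2, was not called at 12 days, when it stood at 78, 75, 74 and 75 in distal and 56, 99, 128 and 92 in proximal libraries (adjusted p = 0.665). At 14 days it was 300, 69, 80 and 69 in distal and 87, 69, 48 and 69 in proximal libraries. Distal replicate 1, the library high in macrophage markers, was far above the other 3. At 21 days Ccr2 was 37, 19, 16 and 22 against 56, 66, 50 and 35, and lower after distal amputation (log2 -1.14 ± 0.36, adjusted p = 0.0326). Distal replicate 1 lay just above proximal replicate 4. The call ended without distal replicate 2, 3 or 4 or proximal replicate 1, 2 or 3, with log2 differences of -1.14 to -0.99. Of 10 macrophage markers, all in the table and none at 0, none was called at 21 days with limma, and 2 had an unadjusted p under 0.05, when their summed value was 2372 to 3050 in distal and 2715 to 4328 in proximal libraries. Of the 10, 4 were lower after distal amputation at 12 days, against 11% of all genes. The sums were then 4061 to 4723 in distal and 5351 to 8229 in proximal libraries.

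Ccr1 and its mouse ligands Ccl9 and Ccl6 make up a further axis, active in myeloid cells and in osteoclasts, the bone-resorbing cells of the digit. Ccr1 (chr9:123962124-123968692, minus strand) stood at 459, 266, 407 and 438 in distal and at 357, 71, 105 and 187 in proximal 12 day libraries. Proximal replicate 1, which stood apart from its group, overlapped the distal range. The difference was 2.56-fold (log2 1.35 ± 0.38, adjusted p = 0.0146), and the call ended without proximal replicate 2 or 3, at log2 1.00 to 1.19. Ccl9 did not pass at 12 days, at 779, 254, 929 and 683 in distal and 679, 128, 184 and 310 in proximal libraries (log2 1.16 ± 0.45, adjusted p = 0.0744). With proximal replicate 1 left out, 12 days held 6 called members, Ccl9 among them, while Ackr4 and Ccl2 were no longer called.

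Ccr1 then declined over time. In distal libraries it averaged 392.5 ± 87.0 at 12 days, 177 ± 52.3 at 14 days and 35.5 ± 13.8 at 21 days, and in proximal libraries 180 ± 128, 114 ± 49.6 and 64.0 ± 8.60. At 14 days it was 147, 193, 125 and 243 in distal libraries and 138, 73, 72 and 172 in proximal libraries (adjusted p = 0.314). At 21 days it was 29, 37, 22 and 54 in distal libraries and 75, 66, 60 and 55 in proximal libraries. The ranges were 1 unit apart, and the log2 difference of -0.90 ± 0.38 was not called (adjusted p = 0.105). The distal change between 12 and 21 days was an 11.1-fold fall (log2 -3.47 ± 0.38, adjusted p = 2.78e-06). It exceeded the proximal change of -1.22 ± 0.38 (adjusted p = 0.0189) by -2.25 ± 0.54 (adjusted p = 0.00656). The proximal change was not called without proximal 12 day replicate 1 or 4, at log2 -1.11 to -0.80.

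Ccl9 fell in the distal groups too, with means of 661 ± 290 at 12 days, 379 ± 121 at 14 days and 100.5 ± 49.8 at 21 days (log2 change at 21 against 12 days -2.67 ± 0.45, adjusted p = 0.000213). Its proximal means were 325 ± 248, 314 ± 152 and 124 ± 22.8, and the proximal log2 change at 21 against 14 days, -1.21, passed narrowly (adjusted p = 0.0488). That call ended without proximal 14 day replicate 1 or 4 or any proximal 21 day library, at log2 -1.33 to -0.96. Ccl6 behaved otherwise: its distal means were 194 ± 34.1, 126 ± 65.8 and 232 ± 62.1 and its proximal means 249.8 ± 150.5, 161 ± 57.1 and 329 ± 121. It was higher at 21 than at 14 days, by 1.01 ± 0.38 after distal amputation (adjusted p = 0.0449) and by 1.05 ± 0.38 after proximal amputation (adjusted p = 0.0438). The distal call ended without 14 day replicate 2 or 3 or 21 day replicate 1, 2 or 4, at log2 0.68 to 0.99. The proximal call ended without 14 day replicate 3 or 4 or 21 day replicate 1, 3 or 4, at log2 0.77 to 1.10.

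Osteoclast markers also fell over time at both levels. Of 7 listed, 6 were in the table, and 1 of them was at 0 in a distal 21 day library. Their summed value was 15139 to 50481 in distal and 6934 to 56977 in proximal libraries at 12 days, 9701 to 25812 and 7320 to 13782 at 14 days, and 2749 to 8184 and 4243 to 6076 at 21 days. Proximal 12 day replicate 1 alone gave the 56977, and the other proximal libraries of that day stood at 6934, 14105 and 16874. None was called between levels on any day with limma, although 3 at 12 days, and none at 14 or 21 days, had an unadjusted p under 0.05. All 6 fell between 12 and 21 days after distal amputation, where 15% of all genes were called lower, and 3 of the 6 after proximal amputation, where 17% were. The list medians were -3.44 after distal and -1.71 after proximal amputation on the log2 scale, where the medians of all genes were -0.02 and -0.01. None was called in the level difference of that change with limma, and 2 had an unadjusted p under 0.05. The distal falls included those of Ctsk, a bone-degrading protease (log2 -2.79 ± 0.44, adjusted p = 0.000106), and Acp5, the phosphatase by which osteoclasts are stained (log2 -2.61 ± 0.48, adjusted p = 0.000461). Their part in the falls of Ccr1 and Ccl9 was not tested.

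Cxcr4 was the receptor with the smallest adjusted p between levels at 21 days. Cxcr4 (chr1:128588199-128592293, minus strand), the receptor for Cxcl12 on marrow cells, lymphocytes and endothelium, stood at 56, 45, 55 and 64 in distal and at 128, 99, 94 and 134 in proximal libraries. The levels were well apart, and the value was 2.04-fold lower after distal amputation (log2 -1.03 ± 0.16, adjusted p = 0.000216), a call that held whichever library was left out. At 12 days Cxcr4 was 127, 168, 125 and 114 in distal and 148, 128, 161 and 181 in proximal libraries (log2 -0.21, 95% interval -0.55 to 0.12). At 14 days it was 159, 137, 100 and 117 against 173, 158, 192 and 204, when distal replicate 1 alone overlapped the proximal range. That difference, -0.51 ± 0.16, was not called (adjusted p = 0.0631), but without distal replicate 1 it was, which raised the count at 14 days to 2 members. The change between 12 and 21 days was more negative after distal amputation by -0.82 ± 0.23 (adjusted p = 0.0181).

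The ligand of Cxcr4 was not called between levels. Cxcl12, made by stromal and endothelial cells, averaged 1386 ± 231 in distal and 1335 ± 174 in proximal libraries at 12 days, 1310.2 ± 377 and 1167 ± 126 at 14 days, and 758 ± 241 and 919 ± 200 at 21 days. Its log2 difference at 21 days was -0.32 with a 95% interval of -0.78 to 0.13, and at 12 days 0.05 with an interval of -0.41 to 0.50; the 12 day difference changed sign when values were scaled by table totals. Cxcl12 fell between 12 and 21 days after distal amputation (log2 -0.92 ± 0.22, adjusted p = 0.00402). Ackr3, the atypical receptor that scavenges Cxcl12, varied little between groups. Its group means lay between 577 ± 59.7 and 684 ± 43.4, no comparison called it, and distal 21 day replicate 3 stood alone at 1013.

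Cxcl14, an abundant ligand of skin epithelium, was higher after distal amputation at 12 and 21 days. At 12 days it stood at 5812, 5772, 5972 and 6210 in distal and at 2479, 3567, 3395 and 3568 in proximal libraries. The groups were far apart, with proximal replicate 1 the lowest, and the difference was 1.85-fold (log2 0.88 ± 0.16, adjusted p = 0.000568). It held without any library. At 14 days Cxcl14 was 8180, 7167, 7657 and 5889 in distal and 6907, 6061, 4961 and 5176 in proximal libraries, which overlapped (log2 0.32 ± 0.16, adjusted p = 0.262). At 21 days it was 8529, 5393, 9932 and 6736 against 5897, 5476, 4451 and 4116. Distal replicate 2 lay among the proximal values, and the difference was 1.51-fold (log2 0.59 ± 0.16, adjusted p = 0.015). That call ended without distal replicate 1 or 3 or proximal replicate 4, at log2 0.46 to 0.53, and when values were scaled by table totals, at 0.45 (adjusted p = 0.0511). In the proximal groups Cxcl14 rose between 12 and 14 days (log2 0.83 ± 0.16, adjusted p = 0.00151). Epidermal markers, 8 of 8 in the table, summed to 415175 to 485558 in distal and 429176 to 804536 in proximal libraries at 12 days, which overlapped, and their part in the Cxcl14 difference was not tested.

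Cx3cl1, a membrane-anchored ligand of epithelium, neurons and endothelium, and its receptor Cx3cr1, carried by macrophages and Langerhans cells, were each called between levels at a single time. At 21 days Cx3cl1 was 515, 440, 633 and 634 in distal and 385, 415, 463 and 453 in proximal libraries, with distal replicate 2 inside the proximal range (log2 0.36 ± 0.11, adjusted p = 0.0311). The call ended without distal replicate 3 or 4 or proximal replicate 1 or 2, at log2 0.29 to 0.34, and with table totals, at 0.22. At 14 days it was 468, 482, 523 and 564 in distal and 389, 422, 410 and 392 in proximal libraries, apart but not called (adjusted p = 0.0853). The 12 day values were 571, 447, 422 and 474 in distal and 360, 353, 432 and 437 in proximal libraries (adjusted p = 0.0926), so the fitted difference was above 0 on all 3 days.

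Cx3cr1 stood at 10, 22, 23 and 21 in distal and at 26, 42, 40 and 65 in proximal 12 day libraries. No distal library reached the proximal range (log2 -1.14 ± 0.40, adjusted p = 0.0462). The call was near the threshold and ended without any distal library or without proximal replicate 2, 3 or 4, at log2 -1.25 to -0.87. At 14 days Cx3cr1 was 84, 21, 31 and 24 against 45, 25, 17 and 31, and at 21 days 24, 20, 42 and 22 against 38, 15, 27 and 25, with the levels mixed both times. Of 10 dendritic and Langerhans cell markers, 7 were in the table, with sums of 1867 to 2199 in distal and 2468 to 4565 in proximal libraries at 12 days. Of these, 4 were lower after distal amputation at 12 days, against 11% of all genes, and 6 at 21 days, against 9.43%. Cd207, the Langerhans cell lectin, was among those lower at 21 days (log2 -1.37 ± 0.37, adjusted p = 0.0148). The part of these markers in the Cx3cr1 difference was not tested.

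Cxcl16, a membrane-bound ligand of macrophages, was 194, 205, 163 and 195 in distal and 265, 273, 264 and 235 in proximal 21 day libraries. The levels did not overlap (log2 -0.45 ± 0.14, adjusted p = 0.0291), and the call ended without distal replicate 1 or 3 or proximal replicate 1, 2 or 3, at log2 -0.47 to -0.39. At 12 days it was 241, 243, 214 and 223 in distal and 238, 337, 307 and 256 in proximal libraries, and at 14 days 341, 229, 191 and 247 against 289, 234, 290 and 327. Neither earlier time gave a call. Exons of Cxcl16 overlap Zmynd15 on the opposite strand over 18.3% of their length, and the sources used here do not give the strand setting of the counting. Cxcr6, its receptor on T cells, was called in no comparison, with group means from 57.8 ± 17.6 to 86.8 ± 21.5.

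Among the atypical receptors, Ackr4, which scavenges Ccl21 and Ccl25, was 249, 236, 246 and 186 in distal and 408, 326, 339 and 372 in proximal 12 day libraries. The levels did not overlap (log2 -0.66 ± 0.23, adjusted p = 0.0427), but the call ended whichever of the 8 libraries was left out, at log2 -0.71 to -0.56. At 14 days Ackr4 was 239, 331, 403 and 384 in distal and 347, 449, 276 and 289 in proximal libraries, and at 21 days 236, 236, 465 and 282 against 244, 395, 448 and 530. Both later times showed overlap, and 8.9% of Ackr4 exon length overlaps Acad11 on the opposite strand. Ackr1, which carries chemokines across venules, was lower at 21 than at 12 days after distal amputation, with means of 48.8 ± 10.9, 40.0 ± 16.2 and 21.0 ± 8.04 over the 3 days (log2 -1.24 ± 0.36, adjusted p = 0.0148). Without distal 21 day replicate 3 that change was -0.94 (adjusted p = 0.0661), and 25.7% of Ackr1 exon length overlaps Cadm3 on the same strand. Ackr2, which removes inflammatory CC ligands, was 46, 59, 67 and 66 in distal and 138, 111, 115 and 82 in proximal 21 day libraries. These did not overlap, yet the log2 difference of -0.89 ± 0.32 missed the threshold (adjusted p = 0.0573).

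The remaining ligands were steady or scarce. Ccl25, with group means of 141 ± 8.10 to 170 ± 13.0, was called nowhere. Its receptor Ccr9 fell between 12 and 14 days after proximal amputation (log2 -0.61 ± 0.15, adjusted p = 0.00744), at means of 173 ± 26.5, 113 ± 18.5 and 152 ± 21.5 over the 3 days, with 21.5% of its exon length shared with neighbouring genes. It was higher at 21 than at 14 days at both levels, by 0.42 ± 0.15 after distal (adjusted p = 0.0318) and 0.43 ± 0.15 after proximal amputation (adjusted p = 0.0341), both near the threshold. The distal call ended without 14 day replicate 2 or 4 or 21 day replicate 1, 2 or 4, at 0.33 to 0.42, and the proximal one without 14 day replicate 3 or 4 or 21 day replicate 2, 3 or 4, at 0.36 to 0.42. Ccl28, a mucosal and epithelial ligand, ranged from 8 to 51 and its skin-homing receptor Ccr10 from 7 to 33 over all libraries. Ccl11, the eosinophil attractant, ranged from 2 to 44. Ccl21a, which guides dendritic cells into lymphatics, ranged from 5 to 88, but 71.6% of its 50-base windows occur in near-identical copies, so its reads may be divided among them. None of these 4 was called in any comparison.

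After distal amputation, the members called over time were mostly lower on the later day. Between 12 and 14 days 3 members fell in distal tissue (Cxcr2, Cxcl1 and Ccr1) and none rose, where 19.4% of all genes were called, 8.12% as lower and 11.2% as higher. Between 14 and 21 days 12 members were called against 34.8% of all genes (21.5% lower, 13.3% higher). Of these, 9 fell, with the smallest adjusted p for Cxcr4 (log2 -1.20 ± 0.16, adjusted p = 8.02e-06) and the largest fall for Cxcl5 (log2 -3.85), and Cxcr2, Ccl6 and Ccr9 rose. The 14 day call of Ccr1, at log2 -1.16 ± 0.38 (adjusted p = 0.035), ended without 12 day replicate 1, 3 or 4 or 14 day replicate 1, 2 or 3, at -1.22 to -1.01. Of the falls at 21 against 14 days, that of Ccl2 ended without 14 day replicate 1 or 4 or 21 day replicate 1 or 3, at -1.34 to -0.98, and that of Cxcl16 without 14 day replicate 1 or 4 or 21 day replicate 1, 3 or 4, at -0.40 to -0.23. At 21 against 12 days 11 members were called, all lower, when 23.8% of all genes were called, 15% as lower and 8.81% as higher. All genes called there split into 1326 higher and 2258 lower, or 675 and 2607 with table totals and 1831 and 1937 with median-ratio factors. Of the 11, 5 are ligands, 5 receptors and 1 atypical, among them Ccr1, Cxcr4, Cxcl5, Ccl9, Cxcl1, Ccr2, Cxcl12, Ccl2, Cxcr2 and Ackr1.

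After proximal amputation, 2 to 4 members were called in each comparison of days. There were 2 at 14 against 12 days (15.2% of all genes), Cxcl14 higher (7.35%) and Ccr9 lower (7.84%), and 4 at 21 against 14 days (28.7%), Ccl6 and Ccr9 higher (12.5%) and Cxcr4 and Ccl9 lower (16.3%). At 21 against 12 days 4 were called (29%), 1 higher (12%), Cxcl14, and 3 lower (17%), Ccr1 and Cxcr4 among them. Cxcr4 averaged 154 ± 22.3, 182 ± 20.3 and 114 ± 20.2 over the 3 proximal groups, with a log2 change of -0.44 at 21 against 12 days (adjusted p = 0.0414) that ended without 12 day replicate 1, 3 or 4 or 21 day replicate 2 or 3, at -0.46 to -0.36. The count at 21 against 14 days fell to 1 without proximal 14 day replicate 4 or 21 day replicate 3 or 4, and to 2 without 21 day replicate 2. The count at 21 against 12 days fell to 1 without proximal 12 day replicate 4 and to 2 without 21 day replicate 3. With table totals, 1 member was higher and 2 lower at 14 against 12 days and 3 higher and 1 lower at 21 against 14 days, a comparison in which that scaling moved the median of all genes by 0.11. The test of the difference itself called 5 members, against 14.8% of all genes: Cxcl1, Ccl2, Ccr1, Cxcl5 and Cxcr4, all with the more negative change after distal amputation, a direction in which 7.42% of all genes were called. With table totals 595 genes were called in the other direction and 1374 in this one. All 5 held in every fit with a library left out. Across the 10 comparisons, 12 members were called between levels, 6 only between days and 8 in none. The matching shares of all genes over the 10 comparisons were not computed, so these counts have no background to be read against.

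Genes that act around the chemokine system were taken from 4 lists. Of all genes, 9.25% were called higher and 11% lower at 12 days, 3.06% and 2.32% at 14 days, and 8.22% and 9.43% at 21 days. Of 15 measured genes among the inducers of chemokines and the NF-kB family, Il1b and Ptgs2, the inducible cyclooxygenase, were higher after distal amputation at 12 days, Ptgs2 by log2 2.29 ± 0.35 (adjusted p = 1e-04). At 21 days 6 of the 15 were lower and none higher, with a list median of -0.41 on the log2 scale, where the median of all genes was -0.05. At 12 days the list median was 0.13 and that of all genes -0.03. The 6 lower at 21 days included the NF-kB subunits Nfkb1 (log2 -0.41 ± 0.07, adjusted p = 0.000498), Nfkb2 and Relb, and Il1rn, the antagonist of interleukin 1 (log2 -0.78 ± 0.18, adjusted p = 0.0045). Il1rn was also the only one lower at 14 days (log2 -0.84 ± 0.18, adjusted p = 0.0108).

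Of 27 measured genes of receptor signalling, 3 were called at 12 days: Rac1, a small GTPase of cell movement, was higher (log2 0.24 ± 0.08, adjusted p = 0.0259), and Gng2, a G protein gamma subunit, and Dock2, a leukocyte activator of Rac, were lower. The list median was 0.01 at 12 days and -0.22 at 21 days, where the medians of all genes were -0.03 and -0.05. At 14 days Gnai2 was higher, and Ptk2b and the receptor kinase Grk2 were lower. At 21 days 6 were lower, against 9.43% of all genes, and none higher. Those lower included Ptk2b, a focal adhesion kinase of leukocytes (log2 -0.81 ± 0.10, adjusted p = 2.99e-05), Stat3 (log2 -0.56 ± 0.10, adjusted p = 0.000507), the Src family kinase Fgr (log2 -1.27 ± 0.29, adjusted p = 0.00449) and Pik3r5, a regulator of PI3 kinase gamma (log2 -0.80 ± 0.22, adjusted p = 0.015).

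Of 14 measured adhesion genes, Selp, the endothelial and platelet selectin on which leukocytes roll, was 162, 307, 320 and 243 in distal and 52, 94, 67 and 51 in proximal 12 day libraries. It was higher in every distal library (log2 1.95 ± 0.38, adjusted p = 0.00107), while the integrin Itgax was lower (log2 -1.08 ± 0.33, adjusted p = 0.0233). None of the 14 was called at 14 days with limma, and none had an unadjusted p under 0.05. At 21 days Itga4 and Vcam1, which bind each other, were higher, and Itgax, Icam2 and Selplg, the ligand of Selp, were lower. The list median was 0.04 at 12 days and -0.68 at 21 days, where those of all genes were -0.03 and -0.05. Among 15 measured relatives of the family outside the name rule, Ccrl2, a chemerin-binding receptor (log2 1.25 ± 0.33, adjusted p = 0.0107), and Ppbp, a platelet CXC ligand of Cxcr2 (log2 2.18 ± 0.77, adjusted p = 0.0479), were higher at 12 days. Cmklr1, the signalling receptor for chemerin, was lower (log2 -0.98 ± 0.19, adjusted p = 0.000815), as were Cmtm3 and Cmtm7. Cmtm4 was higher and Cmtm8 lower at 14 days, and Cmtm4 and Fam19a5 were higher at 21 days.

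**Figure D4:**
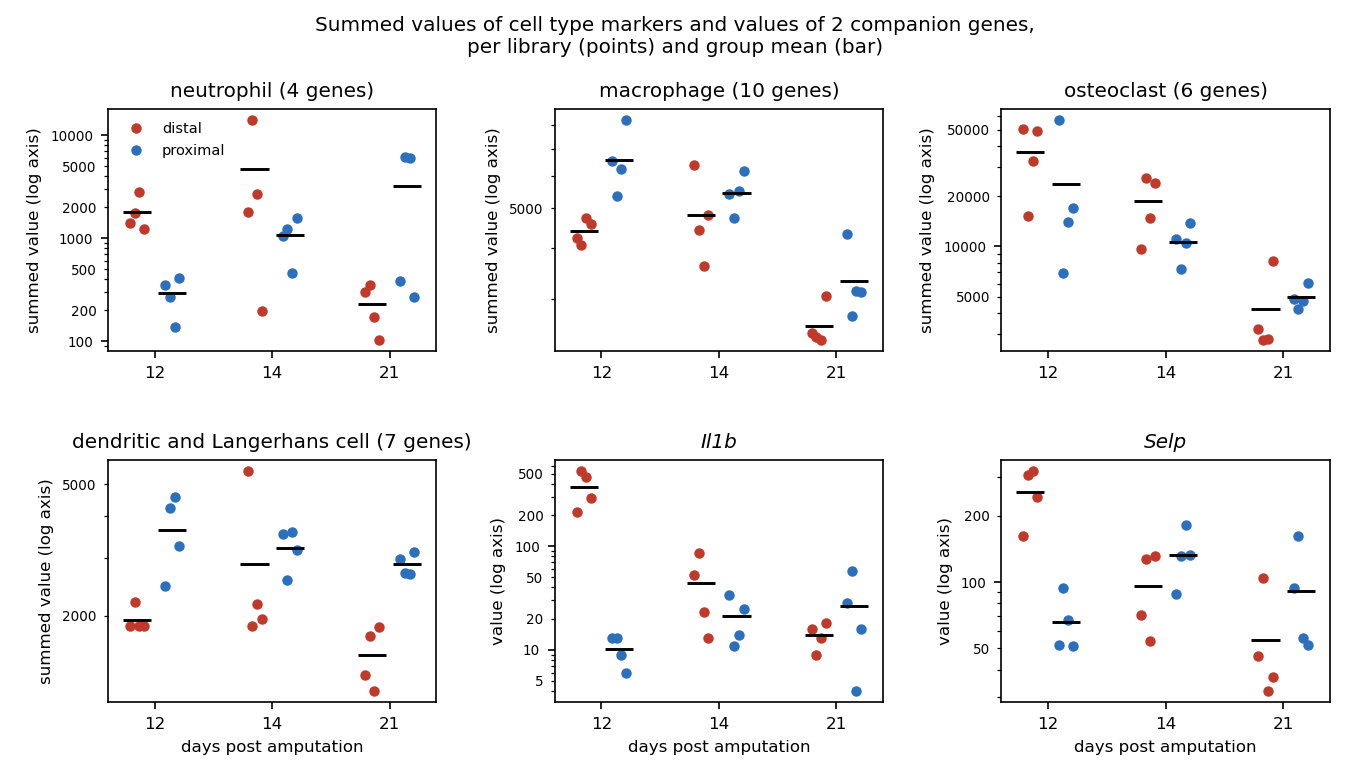
Summed values of the measured markers of 4 leukocyte and osteoclast types and the values of Il1b and Selp (log axes) by days post amputation, with 1 point per library, red for distal and blue for proximal, and a bar at the group mean. Neutrophil sums of distal 12 day libraries, 1231 to 2840, lie above the proximal ones, 139 to 412, and macrophage sums lie below, at 4061 to 4723 against 5351 to 8229.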

How the data were processed

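Per the labels, total RNA of hind limb digit tips was depleted of ribosomal RNA and sequenced. Cutadapt, STAR 2.5.4b and featureCounts 1.6.3 (Subread) on mm10 are named in the submitters' processing notes, which the sources used here give without a strand setting. The deposited table holds a whole-number score per gene and library, normalised by the authors, not raw counts: upper quartiles lay within 902.5 to 930.5, and the direction of least spread across libraries, over 9650 genes above 100, had a natural log spread of 0.00675, below the 0.0453 of Poisson sampling. The sources used here do not give the normalising step, depth is unknown, and p-values may be too small if spread within groups was removed.

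Using R 4.3.3 and limma 3.58.1, log2(value + 1) was fitted with 6 group means (eBayes with a trend, degrees of freedom 18 residual and 3.91 prior). Fold changes understate changes of low genes. The 10 comparisons were levels on each day, days within each level, and the level difference in the change from 12 to 21 days. Members, companion lists and marker lists were chosen with earlier results of these data known. Members called between levels are given in every library, members called between days by means, others by range; from each companion list at most 4 called genes a comparison have values. The fit was tested on simulated data. Gene models came from GENCODE on GRCm38, matching all 26 members (counts are over all 26, but 1 is not reported singly here), and promoters from RefSeq. No batch is given in the labels. Alternatives were pseudocounts of 0.5 and 8, a mean value of at least 50, other scalings, sample weights, a fit to the compared groups alone, a replicate block, and leaving out each library.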

Additional observations from a re-analysis of the deposited data

Results flagged for a closer look

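In 10 of 150 groups of 4 libraries, 1 library lay far from the other 3 by Dixon's criterion. Chance flags about 1 in 20 groups. Distal 14 day replicate 1 was high for the leukocyte receptors Ccr2 at 300 (69 to 80 in the others) and Cx3cr1 at 84 (21 to 31). The same library had the highest dendritic and Langerhans cell marker sum of its group, 5471 against 1871 to 2180, and the highest macrophage sum. Their part in these receptor values was not tested. Leaving it out called Cxcr4 at 14 days as well.

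Single high libraries were Ackr3 at 1013 in distal 21 day replicate 3 (506 to 553 in the others), Ccl28 at 35 in distal 21 day replicate 2 (10 to 14), Cxcl5 at 5 in distal 21 day replicate 4 (3 in each of the others), Ccl21a at 88 in proximal 12 day replicate 2 (26 to 32) and Cxcl5 at 27 in proximal 21 day replicate 2 (3 to 5). Single low libraries were Ccr10 at 7 in distal 12 day replicate 4 (18 to 19), Cx3cr1 at 10 in distal 12 day replicate 1 (21 to 23) and Cxcl14 at 2479 in proximal 12 day replicate 1 (3395 to 3568).

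For 5 members the change between 12 and 21 days differed between the levels by the test of that difference. The distal log2 change minus the proximal one was -4.00 for Cxcl5, -3.67 for Cxcl1, -2.80 for Ccl2, -2.25 for Ccr1 and -0.82 for Cxcr4.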

How the results depend on the processing

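No direction reversed: 19 called differences (between levels, or in the change from 12 to 21 days) were refitted under 166 pairings with another setting, 154 of which gave a call, and 192 with a library left out, 148 of which did. Counts of called members stayed within 1.5 times the report's under every setting except these. A mean value of at least 50 removed low members and left 4 at 12 days, 3 in the level difference and 7 at 21 against 12 days after distal amputation. Sample quality weights left 2 at 21 against 14 days after proximal amputation, and so did the low-spread direction as a covariate, an alternative chosen after seeing the data. Leaving out each library gave 3 to 6 members at 12 days, 1 to 2 at 14 days, 2 to 7 at 21 days, 1 to 4 at 21 against 14 days and 1 to 5 at 21 against 12 days after proximal amputation. Settings that ended single calls were the pseudocount of 8 (Cx3cr1, Ccr2), median-ratio factors (Ackr4) and the covariate (Ackr4, Cx3cr1). Table totals ended those of Cx3cl1 and Cxcl14 at 21 days, and the replicate block those of Cx3cr1 at 12 days and Cxcr2 at 21 days. A fit to only the compared groups ended Ccr1 at 12 days and Cx3cl1 and Cxcl14 at 21 days. The cause was not tested.

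Replicate numbers gave no consistent sign of pairing: over 60 same-numbered pairs the correlation of deviations ran from -0.45 to 0.69, with 19 over 0.1. Pairing is not excluded, since spread within groups may have been removed by the normalising. With the number as a replicate block, 6 members were called at 12 days, 1 at 14 days, 6 at 21 days and 6 in the level difference; Cx3cr1 and the 21 day Cxcr2 call were lost, and Ackr1 was gained at 21 days and in the level difference. Depth is unknown, and members near a value of 20 are the least certain.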

Other observations

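Markers of other cell types in the digit tip also moved between amputation levels, and their part in the chemokine differences was not tested. Of 7 platelet and megakaryocyte genes, 6 were in the table. At 12 days 2 of the 6, Gp5 and Ppbp, were called, both higher after distal amputation, against 9.25% of all genes. At 21 days Gp5 alone was called higher, against 8.22%. The list medians were 0.04 and 0.11 on the log2 scale, and Pf4, Gp1ba and Itgb3 had fitted differences below 0 on both days, none called. Gp5, a platelet surface glycoprotein, was higher after distal amputation at 12 days (log2 2.45 ± 0.43, adjusted p = 0.000371) and at 21 days (log2 1.48 ± 0.43, adjusted p = 0.0217). All 4 lymphatic endothelial genes were in the table, and their summed value was 403 to 955 in distal and 810 to 1917 in proximal libraries at 12 days. Prox1, the lymphatic identity factor, was lower after distal amputation at 12 days (log2 -1.10 ± 0.37, adjusted p = 0.0364) and at 21 days (log2 -1.12 ± 0.37, adjusted p = 0.0383). Reln was lower at 12 days (log2 -0.80 ± 0.23, adjusted p = 0.0153).

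In the connective tissue lists, Lum, a collagen-binding proteoglycan, was higher after distal amputation at 14 days (log2 1.00 ± 0.20, adjusted p = 0.00958) and at 21 days (log2 1.11 ± 0.20, adjusted p = 0.000842), and Pdgfra was lower at 12 days. Among cartilage genes at 12 days, Acan (log2 -1.65 ± 0.43, adjusted p = 0.00879) and Col2a1, both matrix genes, were lower and Sox9, the chondrocyte factor, was higher. Runx2, the osteoblast factor, was higher at 14 days. Of the epidermal genes, Ivl, a cornified envelope protein, was lower at 12 days (log2 -1.19 ± 0.37, adjusted p = 0.026) and at 21 days, and Krt5 was lower at 21 days. The globin genes Hba-a1 and Hba-a2 were higher at 21 days, when the erythroid sum was 1287 to 15915 in distal and 111 to 2283 in proximal libraries.

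T cell, B cell, mast cell and blood endothelial markers gave no call between levels on any day with limma. At an unadjusted p under 0.05 there were 1 of 2 measured T cell genes at 14 days, 3 of 4 mast cell genes and 2 of 7 endothelial genes at 21 days, and no B cell gene. Lymphocyte markers were low: the 2 T cell genes of 10 summed to 25 to 45 in distal and 29 to 56 in proximal libraries at 12 days, and the 1 B cell gene of 8 stood at 13 to 30 in distal and 23 to 36 in proximal libraries.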
